A study of Mus musculus with 4 samples.

Results

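The 10 genes for cleavage and polyadenylation factors tied to the choice of the IgM heavy chain polyadenylation site were read in WT and Hnrnpf bKO FOB cells. The set was chosen by gene symbol and holds Cstf1, Cstf2, Cstf2t, Cstf3, Ell2, Pcf11, Nudt21, Cpsf2, Cpsf3 and Cpsf6. All 10 were found among the 55401 genes of the count table, and all 10 were among the 14123 genes that passed the filter on low counts. FOB cells are the mature recirculating B cells of the splenic follicle, and they were sorted as B220+CD93-CD23highCD21low from spleens of C57BL/6 mice aged 7 weeks. The 2 WT libraries came from Hnrnpf fl/fl mice with no Cre, and the 2 Hnrnpf bKO libraries from Hnrnpf fl/fl mice that carry Cre in B lineage cells. The floxed Hnrnpf allele was therefore shared by both groups, while the Cre allele differed between them along with Hnrnpf, and their effects cannot be told apart. Poly(A) mRNA was sequenced in a single experiment, and whether each library came from one mouse or from pooled mice was not stated, so p-values measure only the spread between these libraries.

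A nascent mRNA is cut downstream of a hexamer, most often AATAAA in the DNA, and a poly(A) tail is added at the cut. CPSF (cleavage and polyadenylation specificity factor) binds the hexamer and makes the cut, CstF (cleavage stimulation factor) binds the GU-rich sequence beyond the cut, and the cleavage factors CFI and CFII complete the machine. The IgM heavy chain gene Ighm is the classic case of regulated polyadenylation in B cells. Use of the upstream site gives the secreted heavy chain, and splicing across that site followed by use of the downstream site gives the membrane form. More CstF and the elongation factor ELL2 are known to favour the upstream site in antibody-secreting cells, and hnRNP F is known to compete with CstF for RNA near it.

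The 2 ends and the splice site that compete with the first of them are shown because the choice between them is what ties these genes together. The sequences were read from the GENCODE transcripts of GRCm38 on the minus strand, 5′ to 3′, with the AATAAA hexamer in capitals in both ends and the GT that opens the intron of the membrane form in capitals in the splice site.
Ighm secreted end, chr12:113420741-113420770: tagaAATAAAaaaaatccattcaaacgtca
Ighm membrane end, chr12:113418558-113418587: tggaAATAAAtactttatcttgtgaactca
Ighm membrane splice site, chr12:113420909-113420938: aagtccactgGTaaacccacactgtacaat
In both ends the hexamer stopped 20 bases before the annotated cut. The membrane splice site lay 188 bases before the secreted end, inside the last exon of the secreted transcript, and the 2 ends were 2183 bases apart. The count table sums both forms of Ighm in 1 row, so the choice between the ends was not measured by it. That row was named after its values were seen, and it held 77829 and 87076 counts in WT, against 71993 and 88713 in Hnrnpf bKO. Ighm had a log2 fold change of 0.03 ± 0.05 (SE), with an edgeR adjusted p of 0.771. The paper read the forms from its RNA sequencing and reported mostly the membrane transcript, to a like extent in both genotypes. It found hardly any secreted transcript, and comparable IgM on the cell surface by flow cytometry.

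The libraries held between 15698567 and 18908963 counts. Hnrnpf, the targeted gene, had 5780 and 6634 counts in WT, against 1167 and 1194 in Hnrnpf bKO, a fall of 79.9% (n = 2 and 2). Over all genes, edgeR's quasi-likelihood test called 985 of 14123 (6.97%) at an adjusted p of at most 0.05, the threshold used throughout, of which 586 (4.15%) were higher and 399 (2.83%) lower in Hnrnpf bKO. Of these, 127 (0.899%) also changed at least 2-fold. The defining follicular B markers had counts in every library. The plasma cell list had 0 of 6 tested markers called by edgeR or DESeq2 and 0 at an unadjusted p under 0.05 in either. Its summed levels were 375 and 397 CPM (counts scaled to the library total) in WT, against 377 and 370 in Hnrnpf bKO. Irf4 gave the largest part of this sum (3805 and 4502 counts in WT, against 3369 and 3948 in Hnrnpf bKO). Jchain gave a small part (60 and 240 counts in WT, against 175 and 161 in Hnrnpf bKO), so the sum says little about it. Other markers moved with the genotype, among them 4 of 6 marginal zone B markers (2 higher and 2 lower). Cr2 fell by 0.47 on the log2 scale, and Cd93, a marker the sort selected against, rose by 0.85. Vpreb3, the other tested marker of the transitional or immature B list, was not called (log2 fold change -0.10, edgeR adjusted p = 0.477). The sum of that list was 72.7 and 81.0 CPM in WT, against 80.3 and 79.8 in Hnrnpf bKO. Most of it was Vpreb3, with 1049 and 1306 counts in WT, against 995 and 1080 in Hnrnpf bKO. Cd93 had 138 and 222 counts in WT, against 261 and 354 in Hnrnpf bKO, so the sum mainly followed Vpreb3. The myeloid genes S100a8 and S100a9 rose, with the summed myeloid list at 11.5 and 17.7 CPM in WT against 21.8 and 33.1 in Hnrnpf bKO. The T cell, NK, erythroid and germinal center lists had no called gene by edgeR or DESeq2, with 2, 0, 0 and 1 genes at an unadjusted edgeR p under 0.05, and Rag2 and Igll1 had 0 counts in all 4 libraries. The part of these marker differences in the results below was not tested, and in bulk RNA fewer cells of a type and less RNA per cell cannot be told apart.

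Of the 10 factors, 1 was called lower and 1 was called higher in Hnrnpf bKO, against 6.97% of all genes tested, and 8 were not called. Ell2 fell by 25.3% and Cstf2t rose by 17.7%. No factor changed 2-fold. The other 8 lay between -0.10 and 0.13 on the log2 scale, with adjusted p between 0.407 and 0.902, and their widest 95% intervals ran from a 0.848-fold to a 1.24-fold level in Hnrnpf bKO. The CPM scaled by TMM, edgeR's correction for library composition, did not overlap between the groups for 5 of 10 factors (Ell2, Cstf2t, Cstf2, Nudt21 and Cpsf3), and the same held for 50.1% of all genes tested. The median log2 fold change was -0.04 over the 10 factors and 0.00 over all genes. Counting error differs with abundance, so the share called was also read among the 6476 tested genes whose mean count lay in the range of the factors, where it was 8.55%.

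**Figure D1:**
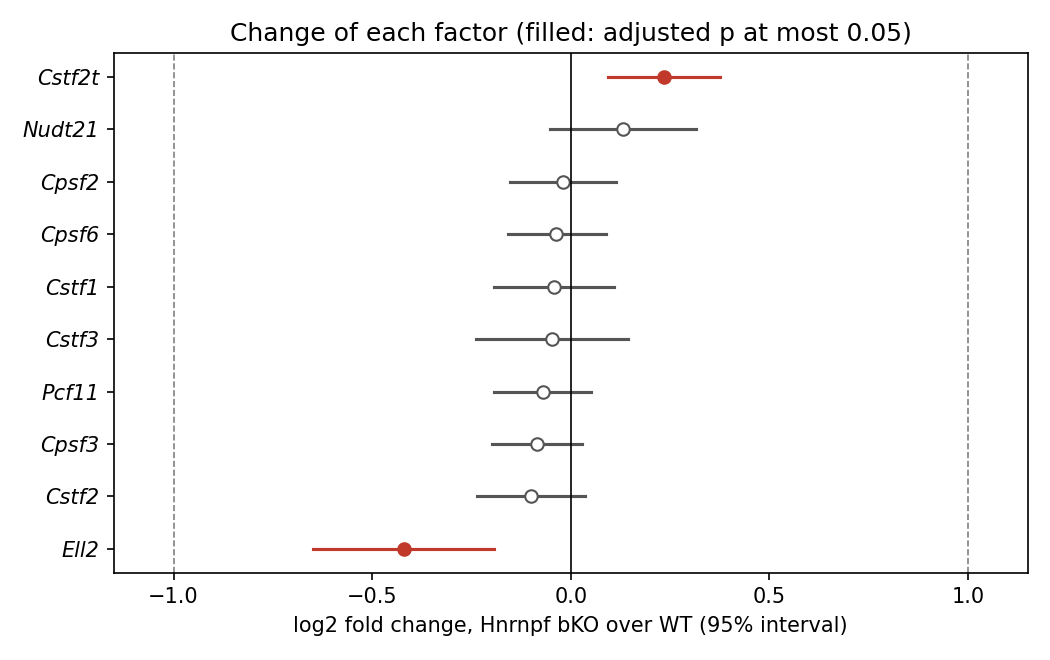
Log2 fold change of each factor, Hnrnpf bKO over WT (x axis), with its 95% interval from the edgeR fit on 2 and 2 libraries. Filled points are the 2 called factors, Ell2 at -0.42 and Cstf2t at 0.24, dashed lines mark a 2-fold change, and the intervals of the other 8 cross 0.

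CstF is built from 3 kinds of subunit, and 1 of the 4 CstF genes, Cstf2t, was called, against 6.97% of all genes tested. Cstf1 (chr2:172370681-172382448, plus strand) encodes the WD-repeat subunit and stood at 18.77 and 20.01 FPKM (counts scaled to exon length and library total) in WT, against 18.98 and 18.44 in Hnrnpf bKO. The groups overlapped, with a log2 fold change of -0.04 ± 0.07 (SE, edgeR adjusted p = 0.798). Cstf3 (chr2:104590523-104665429, plus strand) encodes the scaffold that joins the other subunits and was at 6.79 and 7.27 FPKM in WT, against 7.21 and 6.31 in Hnrnpf bKO. Its groups also overlapped (log2 fold change -0.05 ± 0.09, edgeR adjusted p = 0.816). Cstf2 (chrX:134059187-134086819, plus strand) encodes the RNA-binding subunit, the one whose amount is known to bear on the Ighm choice. It was at 8.98 and 9.12 FPKM in WT, against 8.42 and 8.35 in Hnrnpf bKO. Both Hnrnpf bKO libraries were below both WT libraries, and the log2 fold change of -0.10 ± 0.06 missed the threshold (edgeR adjusted p = 0.421, 95% interval from 0.850-fold to 1.03-fold).

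Cstf2t (chr19:31082837-31087069, plus strand) encodes a second form of the same RNA-binding subunit from a gene of 1 exon. It had 1316 and 1467 counts in WT, against 1501 and 1609 in Hnrnpf bKO, or 19.00 and 18.33 FPKM against 22.59 and 21.03. Both Hnrnpf bKO libraries were above both WT libraries although their count totals were lower than those of the same-numbered WT libraries. The log2 fold change was 0.24 ± 0.07 (SE), a 1.18-fold level with a 95% interval from 1.07 to 1.30, and the edgeR adjusted p was 0.0469. Leaving out WT replicate 1, WT replicate 2 or Hnrnpf bKO replicate 1 ended the call (adjusted p of 0.0562, 0.161 and 0.261), and over 11 other settings the adjusted p ranged from 0.0229 to 0.261 and passed in 4. The gene lies inside Prkg1 on the opposite strand, and Prkg1 had at most 1 count in any library.

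The coding starts of both forms are shown because reads must tell these 2 genes apart for their levels to be compared. The first 60 coding bases were taken from the GENCODE transcripts of GRCm38 on the plus strand, and capitals mark the 13 positions where the 2 differ.
Cstf2, chrX:134059365-134060645, across the first coding intron: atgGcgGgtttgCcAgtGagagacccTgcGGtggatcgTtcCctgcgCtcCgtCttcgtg
Cstf2t, chr19:31083066-31083125: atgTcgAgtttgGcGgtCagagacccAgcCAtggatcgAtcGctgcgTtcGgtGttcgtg
Over the whole coding sequence, 1740 bases in Cstf2 and 1896 in Cstf2t, 1247 of 1662 aligned positions were identical (75.0%). The longest identical run was 26 bases, which is shorter than the 150-base reads.

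The fold changes of the 2 genes had opposite signs, and that of Cstf2t was called. Cstf2 made up 32.1% and 33.2% of the summed Cstf2 and Cstf2t FPKM in WT, and 27.2% and 28.4% in Hnrnpf bKO. Both Hnrnpf bKO libraries were below both WT libraries, and the mean share dropped by 4.87 percentage points, with SDs of 0.799 and 0.897 (n = 2 and 2). The exact two-sided permutation test gave p = 0.333 (0.467 adjusted over 7 ratios), the smallest value that 2 against 2 allows. The summed level of both was 28.0 and 27.4 FPKM in WT, against 31.0 and 29.4 in Hnrnpf bKO, again without overlap and at the same exact permutation p of 0.333. Such separation was common, since in CPM 50.1% of all genes tested did not overlap between the groups. How often shares or sums of other genes separate was not counted. FPKM divides by all annotated exons, 9180 bases for Cstf2 and 4233 for Cstf2t, and without this division the Cstf2 share was 50.6% and 51.9% of CPM in WT, against 44.7% and 46.3% in Hnrnpf bKO. The direction of the difference was therefore the same on both scales, while the share itself depended on the length used.

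**Figure D2:**
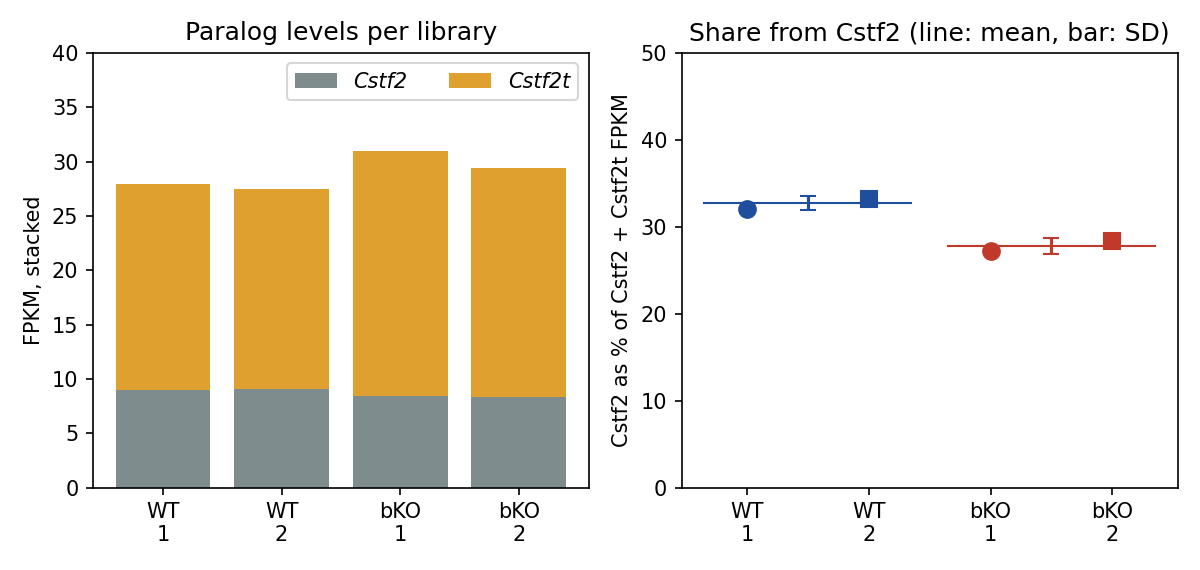
Left, FPKM of Cstf2 and Cstf2t stacked for each library, and right, the FPKM share from Cstf2, with a line at the mean and a bar for the SD of the 2 libraries in each group. The share was 32.1% and 33.2% in WT and 27.2% and 28.4% in Hnrnpf bKO.

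Ell2 (chr13:75706757-75772364, plus strand) encodes an RNA polymerase II elongation factor that plasma cells carry in large amounts. It had the lowest level of the 10 factors, with 380 and 429 counts in WT, against 270 and 304 in Hnrnpf bKO, or 2.36 and 2.31 FPKM against 1.75 and 1.71. Both Hnrnpf bKO libraries were below both WT libraries. The log2 fold change was -0.42 ± 0.11 (SE), a 0.747-fold level with a 95% interval from 0.638 to 0.874, and the edgeR adjusted p was 0.0289. Leaving out any 1 of the 4 libraries ended the call, with log2 fold changes from -0.44 to -0.40 and adjusted p from 0.0773 to 0.112, and DESeq2 gave an adjusted p of 0.172. The related gene Ell was at 1019 and 1111 counts in WT, against 923 and 996 in Hnrnpf bKO (edgeR adjusted p = 0.627). The Ell2 level was 0.118 and 0.122 of the Ell level in FPKM in WT, against 0.0925 and 0.0964 in Hnrnpf bKO, without overlap (exact permutation p = 0.333). Among single genes, 50.1% of all tested did not overlap in CPM.

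**Figure D3:**
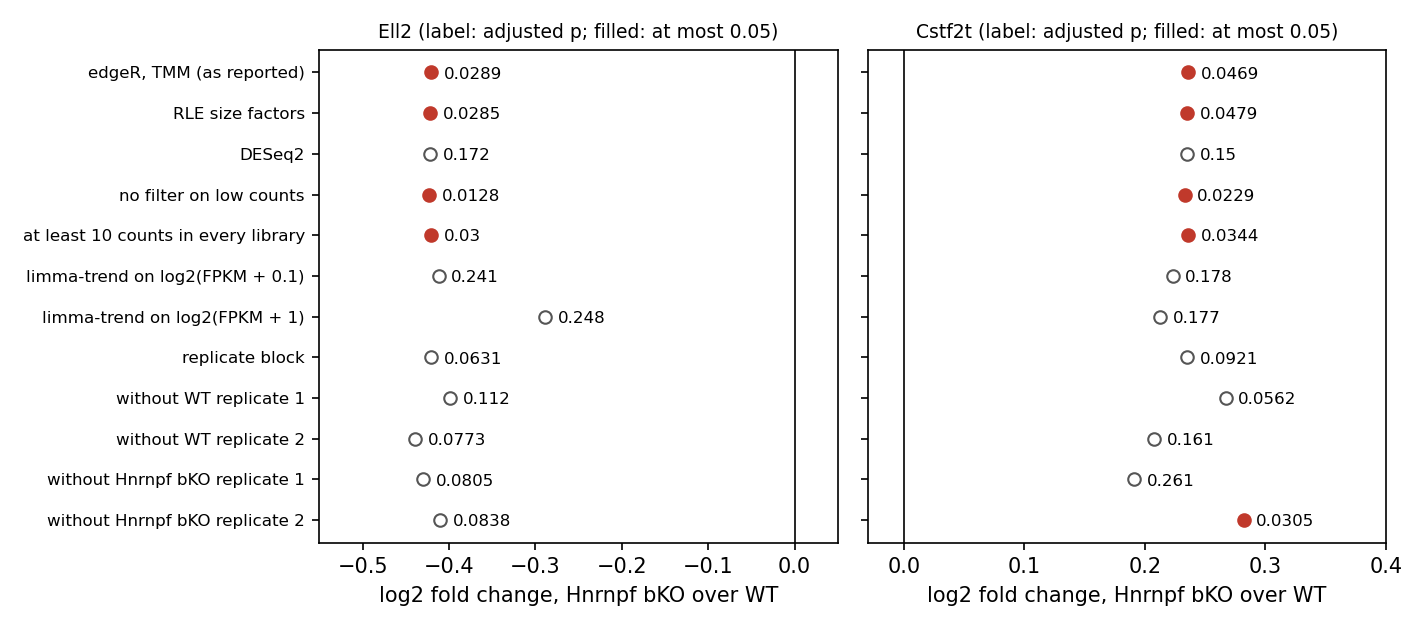
Log2 fold changes of Ell2 (left) and Cstf2t (right), Hnrnpf bKO over WT, in the edgeR fit and 11 other settings, each point labelled with its adjusted p and filled where that is at most 0.05. All 12 points of Ell2 lie below 0 and all 12 of Cstf2t above 0, and filled points become open in 8 of the 11 other settings for Ell2 and in 7 of 11 for Cstf2t.

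The 2 CPSF genes of the set encode the related proteins of the cutting module. Cpsf3 (chr12:21285391-21315056, plus strand) encodes the endonuclease and had the highest level of the 10 factors, 29.02 and 29.76 FPKM in WT, against 27.38 and 27.59 in Hnrnpf bKO. Its groups did not overlap, and its log2 fold change was -0.09 ± 0.05 (SE, edgeR adjusted p = 0.407). Cpsf2 (chr12:101975988-102006424, plus strand), whose product resembles the endonuclease but lacks its activity, was at 19.01 and 18.32 FPKM in WT, against 17.67 and 18.84 in Hnrnpf bKO. Its groups overlapped, with a log2 fold change of -0.02 ± 0.06 (edgeR adjusted p = 0.902). The Cpsf2 level was 0.655 and 0.616 of the Cpsf3 level in WT, against 0.645 and 0.683 in Hnrnpf bKO (exact permutation p = 0.667). On the opposite strand, Itgb1bp1 overlaps Cpsf3, with 340 to 450 counts, and Ndufb1-ps overlaps Cpsf2, with 373 to 439. Reads may be shared between them, since the strand setting of the counting was not stated.

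CFI binds UGUA elements upstream of the cut and bears on which of several sites a transcript uses. Nudt21 (chr8:94015496-94037031, minus strand) encodes its small RNA-binding subunit and was at 5.77 and 5.73 FPKM in WT, against 6.30 and 6.19 in Hnrnpf bKO. Both Hnrnpf bKO libraries were above both WT libraries, and the log2 fold change of 0.13 ± 0.09 (SE) missed the threshold (edgeR adjusted p = 0.434, 95% interval from 0.964-fold to 1.24-fold). A stretch of 684 bases of Nudt21 is identical in Gm7488, which had between 34 and 57 counts, so reads from that stretch may be shared between them. Cpsf6 (chr10:117344673-117380015, minus strand), the larger CFI subunit, was at 24.28 and 22.68 FPKM in WT, against 23.61 and 21.86 in Hnrnpf bKO, with overlapping groups (log2 fold change -0.04 ± 0.06, edgeR adjusted p = 0.782). Pcf11 (chr7:92643543-92669934, minus strand) encodes the CFII subunit that contacts the C-terminal domain of RNA polymerase II. It was at 24.24 and 23.17 FPKM in WT, against 21.72 and 23.04 in Hnrnpf bKO. Both Hnrnpf bKO values lay below both WT values, the nearer pair by a small margin, and in the TMM-scaled CPM the groups overlapped (log2 fold change -0.07 ± 0.06, edgeR adjusted p = 0.539).

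The factors differed far more from each other than between genotypes. Per length, the mean over the 4 libraries ran from 2.03 FPKM for Ell2 to 28.4 for Cpsf3. Cpsf3 stood above the rest, and its range over the libraries did not reach that of Cpsf6 at 23.1. Below it, Cpsf6, Pcf11 at 23.0, Cstf2t at 20.2, Cstf1 at 19.1 and Cpsf2 at 18.5 formed a run in which each range overlapped that of its neighbour. A step without overlap led to Cstf2 at 8.72, and further such steps led to Cstf3 at 6.89, Nudt21 at 6.00 and Ell2. The first and the last 4 places were the same in WT and in Hnrnpf bKO. FPKM divides by all annotated exons, which were 9180 bases for Cstf2, against 4502 in its longest coding transcript. For Cstf3 these lengths were 5879 and 2817 bases, while for Cstf2t both were 4233 and for Cpsf2 both were 5732. The steps between factors may therefore depend on the length used, and an order by transcript length was not made.

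**Figure D4:**
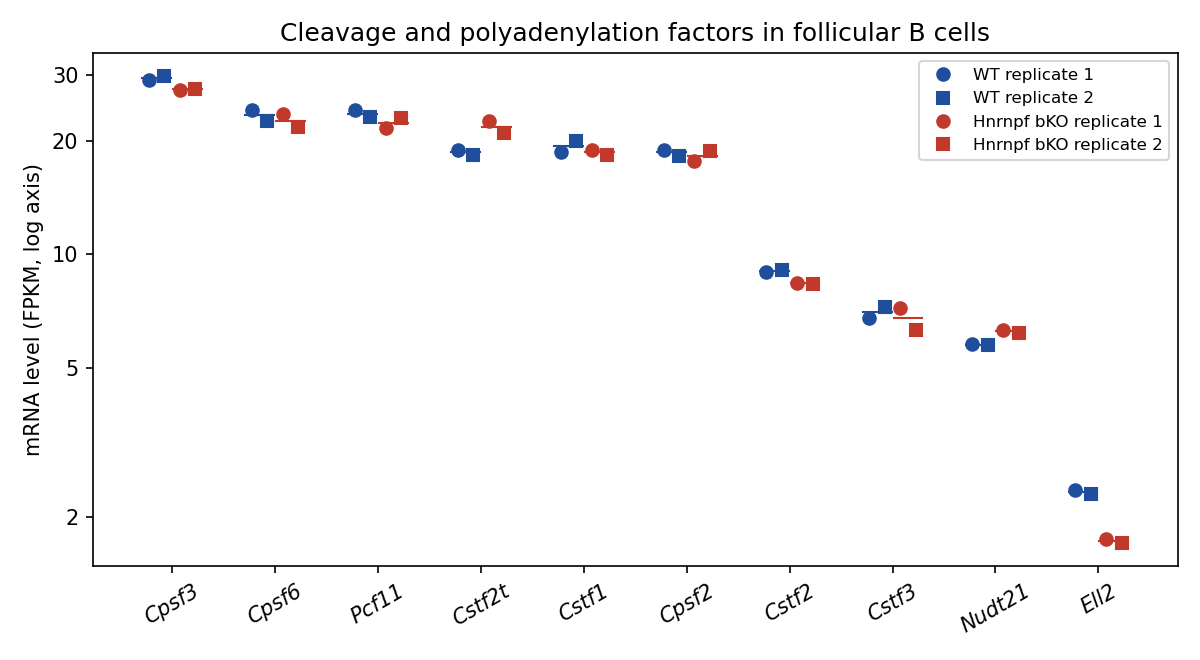
FPKM (log axis) of the 10 factors in each of the 4 libraries, ordered by their mean, with lines at the group means. Ell2 stands lowest, at 2.36 and 2.31 in WT, against 1.75 and 1.71 in Hnrnpf bKO, and Cstf2t is the factor of the middle run in which both Hnrnpf bKO points lie above both WT points.

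Other genes of the pathway were read from 7 lists of 76 genes, of which 74 were tested and 8 called (10.8%, 5 higher and 3 lower), or 7 of 73 (9.59%) without Hnrnpf, against 6.97% of all genes. Of the 8 other CPSF, CstF, CFI and CFII genes, 2 rose. Cpsf7, an alternative partner of Nudt21 in CFI in place of Cpsf6, was at 42.97 and 41.97 FPKM in WT, against 48.64 and 51.02 in Hnrnpf bKO (log2 fold change 0.24 ± 0.05, edgeR adjusted p = 0.0129). Its level relative to Cpsf6 was 1.77 and 1.85 in WT, against 2.06 and 2.33 in Hnrnpf bKO, without overlap (exact permutation p = 0.333). Among single genes, 50.1% of all tested did not overlap in CPM. Cpsf4l, a little-expressed relative of the zinc finger subunit gene Cpsf4, had 67 and 84 counts in WT, against 110 and 148 in Hnrnpf bKO (log2 fold change 0.84 ± 0.21, edgeR adjusted p = 0.0259). The other 6 were not called. Over the 8 genes the median log2 fold change was -0.04, and under 11 other settings Cpsf7 kept its direction and passed in 7 and Cpsf4l in 5. Without Hnrnpf bKO replicate 2 the adjusted p was 0.0805 for Cpsf7 and 0.128 for Cpsf4l, and without WT replicate 1 it was 0.0628 for Cpsf4l. Reads of Cpsf7 may be shared with Sdhaf2, which overlaps it on the opposite strand and had between 898 and 1121 counts, since the strand setting of the counting was not stated.

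In the super elongation complex, ELL proteins act with the kinase that releases paused RNA polymerase II. Its list held 3 called genes of 12 (25.0%), against 6.97% of all genes tested. Cdk9, that kinase, rose from 40.91 and 40.41 FPKM in WT to 57.39 and 59.12 in Hnrnpf bKO (log2 fold change 0.53 ± 0.05, edgeR adjusted p = 6.64e-05). It passed in each of the 11 other settings. Ell3, the third ELL family gene, fell from 335 and 367 counts to 217 and 273 (log2 fold change -0.45 ± 0.12, edgeR adjusted p = 0.0355, passing in 4 of 11 other settings), and Aff3, a scaffold-type AFF gene of lymphoid cells, fell from 38.80 and 39.41 FPKM to 32.11 and 31.88 (-0.28 ± 0.05, edgeR adjusted p = 0.00486, passing in 9 of 11). The Ell3 call was lost without WT replicate 1, WT replicate 2 or Hnrnpf bKO replicate 1 (adjusted p of 0.137, 0.0611 and 0.162). Over the 12 genes the median log2 fold change was -0.12.

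Of 8 genes listed as regulators at the Ighm site or their family members, 3 were called (37.5%), against 6.97% of all genes tested. Among them was Hnrnpf, the targeted gene, whose fall was set by the design, so the 37.5% is not a like comparison with all genes. The other called genes were the Hnrnpf paralogs Hnrnph1 and Hnrnph3, which rose. Hnrnph1, whose product is known to bind the same G-rich elements, went from 103.75 and 115.79 FPKM to 151.80 and 159.53 (log2 fold change 0.52 ± 0.06, edgeR adjusted p = 0.000162), and Hnrnph3 from 31.17 and 29.66 FPKM to 52.28 and 51.27 (0.78 ± 0.06, edgeR adjusted p = 5.72e-06). Hnrnph3 passed in all 11 other settings and Hnrnph1 in 9, and Hnrnph3 overlaps Rufy2, with 679 to 855 counts, on the opposite strand. The 5 other genes of this list were not called.

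The remaining 4 lists had no called gene by edgeR or DESeq2, and at an unadjusted edgeR p under 0.05 they held 1, 2, 1 and 0 genes in the order given here. Among 18 tested poly(A) polymerase, poly(A)-binding and associated genes the log2 fold changes ran from -0.12 for Pabpc4 to 0.20 for Pabpn1, the nuclear poly(A)-binding protein gene (adjusted p = 0.0615), and Papolb had 0 counts in all libraries. Among 12 genes of the PAF1 complex and of elongation near gene ends they ran from -0.19 for Cdk12 to 0.21 for Ctr9. Among 10 genes for the 3′ ends of histone mRNAs they ran from -0.20 for Lsm10 to 0.45 for Zfp473, which had at most 85 counts. In the plasma cell program, read because Ell2 belongs to the genes that rise in that state, the 6 tested genes ran from -0.11 for Irf4 to 0.28 for Jchain. Jchain had 60 and 240 counts in WT, against 175 and 161 in Hnrnpf bKO, and without WT replicate 1 its log2 fold change was -0.33. Without WT replicate 2 it was 1.46 and passed the threshold (edgeR adjusted p = 0.000341), and the plasma cell list then had 1 called gene. Tnfrsf17 had at most 3 counts and was not tested. The poly(A) list had 1 called gene without Hnrnpf bKO replicate 1 and 1 with no filter on low counts, and the PAF1 list had 1 without WT replicate 2.

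**Figure D5:**
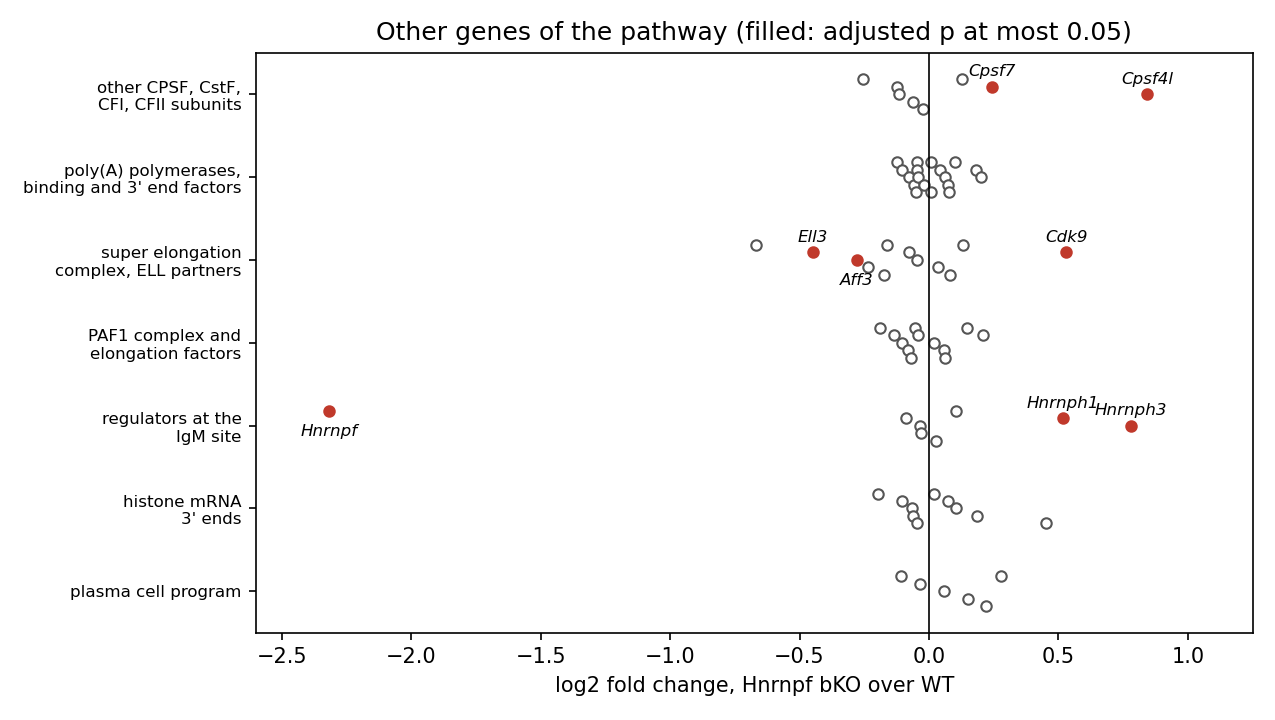
Log2 fold change, Hnrnpf bKO over WT (x axis), of the 74 tested genes in the 7 lists, 1 point a gene, with vertical offsets inside a list only to separate the points. Filled and named are the 8 called genes, with Hnrnpf at -2.32 and the 5 called higher between 0.24 (Cpsf7) and 0.84 (Cpsf4l).

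The genes most like each called factor across the 4 libraries were named by the Euclidean distance of their centred log2 CPM, among 9874 genes whose mean count was 100 or more. For Cstf2t these were Eny2 (distance 0.0103, 447 and 503 counts in WT, against 513 and 551 in Hnrnpf bKO), the immunoglobulin segment Igkv16-104 (0.0152) and Apobec1 (0.0283). For Ell2, Cuta (0.0265, 820 and 947 counts in WT, against 596 and 664 in Hnrnpf bKO) and Naglu (0.0267) were among the 3 nearest. With 4 libraries such likeness is a description of these samples.

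In the splicing table, which lists altered events between the genotypes, 1 of the 10 factors had a row, against 8.22% of all genes tested and 11.6% of those in the same range of counts. The row was a retained intron of Cstf2. Among the 76 genes of the lists, 7 had a row, with an alternative 3′ splice site in Cdk9, 2 such sites and a retained intron in Cpsf4, a retained intron in Cpsf1, a retained intron and a skipped exon in Hnrnph1, and 1 skipped exon each in Hnrnph3, Eaf2 and Jchain. Retained reads can be counted within a gene, and the part of this in the Cstf2 level was not tested.

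The ends of the factors' own mRNAs were also read, over a longer window than the 30 bases shown for Ighm. In the last 50 bases of the longest coding transcript, AATAAA on the transcript strand was found in 7 of 10 factors (70.0%), against 59.2% of 21901 genes. With ATTAAA, a common variant, added, 8 of 10 (80.0%) held either hexamer, against 72.2%. Cstf2 and Ell2 were among the 7, with 11 and 28 bases between hexamer and end, and Pcf11 held ATTAAA. Neither hexamer was in this window in Cstf2t and Cpsf3, which says only that these letters are not there.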

How the data were processed

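The authors trimmed reads with cutadapt 1.9.1, aligned them to GRCm38 with HISAT2 2.0.1 and made the deposited counts per gene with HTSeq 0.6.1. FPKM, also deposited, is the count divided by library total and exonic length. Strand setting and annotation release are not given in the sources used here. The splicing table also holds the authors' FDR and inclusion differences, which were not used.

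The members and lists were chosen with earlier results of these data known. Counts were compared with edgeR 4.0.16 (TMM, filterByExpr, quasi-likelihood test, Benjamini-Hochberg adjustment over 14123 genes, calls at adjusted p ≤ 0.05). The methods of the paper name DESeq2, which was tried (version 1.42.0) besides RLE size factors, other count filters, limma 3.58.1 on log2(FPKM + 0.1) and log2(FPKM + 1) for a mean FPKM of at least 0.5, a replicate block, each library left out in turn (the lone library of a group is then assumed to vary like the others), and a 2-fold threshold. Named were all members, Hnrnpf, the called genes of each list (otherwise its lowest and highest log2 fold change), and the 3 genes nearest to each called member, of which 1 is not reported here. The fit was tried on simulated data that gave every gene a common spread and planted 1.41-fold and 2-fold changes. Changes as small as those of Ell2 and Cstf2t were not simulated, so it does not bear on these calls. Count totals of 15698567 to 18908963 and 2 libraries a group limit the precision. Overlaps used GENCODE M21, and copies were sought with blastn 2.17.0 (at least 90% identity over 300 bases).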

Additional observations from a re-analysis of the deposited data

How the results depend on the processing

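Over all genes, the count of 985 calls became 621 with DESeq2, 612 with the replicate block, 45 and 41 with limma on log2(FPKM + 0.1) and log2(FPKM + 1), and 127 with the 2-fold threshold. The 2 calls among the 10 factors became 0 with DESeq2, the replicate block, both limma fits and the 2-fold threshold, and 0 to 1 with a library left out, while 2 factors each had an unadjusted p under 0.05 in edgeR, DESeq2 and limma. Under the replicate block the adjusted p was 0.0631 for Ell2 and 0.0921 for Cstf2t. The correlation of deviations between same-numbered libraries was -0.0706, so the numbers were not taken to pair the samples. The 8 calls in the lists became 5 with the replicate block, 3 in each limma fit and 1 with the 2-fold threshold. With a library left out, log2 fold changes near 0 crossed it: Cstf1 ranged from -0.08 to 0.006 (above 0 without WT replicate 2), Cstf3 from -0.137 to 0.042 (0.002 without WT replicate 2, 0.042 without Hnrnpf bKO replicate 2), Cpsf2 from -0.072 to 0.032 (0.013 without WT replicate 1, 0.032 without Hnrnpf bKO replicate 1), Cpsf6 from -0.085 to 0.020 (0.020 without WT replicate 1, 0.014 without Hnrnpf bKO replicate 2) and Jchain from -0.327 to 1.456 (the first without WT replicate 1, the second without WT replicate 2). The cause was not tested. Ell2, Cstf2t, Cstf2, Pcf11, Nudt21 and Cpsf3 kept their direction in all 11 other settings, and RLE size factors and both other count filters kept both calls. With 2 libraries a group, a factor that was not called may still have changed by any amount inside its stated interval.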
